A study of Mus musculus with 6 samples.

Results

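Ccl2, Ccl6, Ccl7, Ccl9, Cxcl1, Cxcl5, Cxcl14 and Cxcl16, which encode chemokine ligands, and Ackr3 and Ackr4, which encode chemokine-scavenging receptors, were followed through cultures of mouse bone marrow mesenchymal stem cells. They were matched by symbol, and all 10 were among the 15063 genes listed in the expression tables. Lyz2, which encodes the lysozyme of macrophages and granulocytes, was read beside them. The study asked how Mapk7, the gene of the MAP kinase ERK5, acts on the choice of marrow mesenchymal cells between bone and fat. RNA-seq was done on 3 libraries labelled Mapk7 conditional knockout (CKO) and 3 labelled wild type (WT), all from mice 3 weeks old and all grown in α-MEM with serum. The labels name neither the Cre driver nor the deleted exons, and they name no added agent in either group. CKO libraries 1, 2 and 3 and WT libraries 1 and 3 were at passage 5, and WT library 2 was at passage 7. WT libraries 1 and 2 carry the same animal label but differed in the Y-linked gene Ddx3y. The number of WT animals is therefore uncertain and may be below 3.

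Chemokines are small secreted proteins that draw leukocytes along a gradient. CC ligands such as CCL2 and CCL7 mainly attract monocytes, and CXC ligands that carry an ELR motif, such as CXCL1 and CXCL5, attract neutrophils. The atypical receptors ACKR3 and ACKR4 bind chemokines without signalling through G proteins and carry them into the cell for degradation, which lowers the ligand level around it. In marrow, stromal cells and macrophages both make chemokines, and a plastic-adherent culture of marrow can hold both cell types.

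The letters that give both ligand families their names can be read in the transcripts. These stretches of the coding sequence, from GENCODE M21, are shown in lower case with the first pair of cysteine codons of the mature protein in capitals, adjacent in CC ligands and parted by 1 codon in CXC ligands. In Cxcl1 the codons just before the capitals are those of the ELR motif, which the Cxcl14 stretch does not have.
Ccl6: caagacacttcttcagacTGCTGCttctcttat
Ccl9: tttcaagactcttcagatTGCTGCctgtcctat
Cxcl1: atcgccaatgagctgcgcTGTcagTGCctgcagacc
Cxcl14: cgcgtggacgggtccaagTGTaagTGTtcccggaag

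Mapk7 itself was at 5.59, 3.84 and 5.45 RPKM (reads scaled to gene length and library total) in CKO libraries 1 to 3, against 7.12, 6.76 and 9.07 RPKM in WT libraries 1 to 3. All 3 CKO libraries were below all 3 WT libraries, as in 9.18% of all genes tested. The difference was −0.54 (SE 0.23) on the log2(RPKM + 1) scale, with an adjusted p of 0.505 in limma, a linear model fitted over all genes. Markers of other cell types were read in the same libraries. The summed level of 21 monocyte and macrophage markers was 465 to 3794 RPKM in CKO libraries and 892 to 2509 RPKM in WT libraries, none of the 20 tested was called, and none was at 0 in all libraries. The 5 endothelial markers were each under 1 RPKM in all libraries. The 5 listed granulocyte markers summed to 0.391 to 7.99 RPKM in CKO libraries and 0.214 to 4.47 RPKM in WT libraries, and Cd79a, the single listed lymphocyte marker, reached 0.281 RPKM in CKO libraries and 0.0575 RPKM in WT libraries. The 12 stromal markers summed to 3303 to 7045 RPKM in CKO libraries and 5682 to 6709 RPKM in WT libraries. WT library 2, of the later passage, stood apart on the first principal component (51% of the variance), at 76.4 against at most 21.3 in the other libraries. On the same axis CKO libraries 1 to 3 were at −23.1, −32.2 and −36.8, below WT libraries 1 and 3 at −5.7 and 21.3. For WT library 2, passage and genotype cannot be told apart on it. WT libraries 1 and 3 were at passage 5, as were the CKO libraries. Ddx3y, a Y-linked gene, was at 0.0357 RPKM in WT library 1 and at 6.45 RPKM or more in the other 5, although WT library 2 carries the same animal label. WT library 1 may thus differ from the others in sex. In these bulk samples, fewer cells of a type and less RNA per cell cannot be told apart.

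Of the 10 genes, Ackr4 alone did not overlap between CKO and WT cultures. Ackr4 was nearly silent in all 3 CKO libraries and present in all 3 WT libraries. The other 9 genes overlapped between the genotypes, and 6 of them peaked in the same library, CKO library 3. None of the 10 genes passed an adjusted p of 0.05 in limma, where 1 of all 11085 genes tested did (0.00902%). At an unadjusted p under 0.05, 1 of the 10 was called, Ackr4, against 9.74% of all genes (3.36% higher and 6.39% lower in CKO libraries), and limma-voom on the recovered reads called none of them at either level. In 1 of the 10, again Ackr4, the libraries of the genotypes did not overlap, against 16.7% of all genes. Each count of 1 in 10 is thus near or below its share over all genes. Differences of 7 genes lay above 0 and of 3 below it, with a median of 0.26 beside 0.034 over all genes tested. Without CKO library 3, 1 of the 10 lay above 0, and without WT library 2, 2 of the 9 still tested did. All 10 genes passed the filter for testing (1 RPKM or more in 3 or more libraries), Ackr4 only through the WT libraries.

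**Figure D1:**
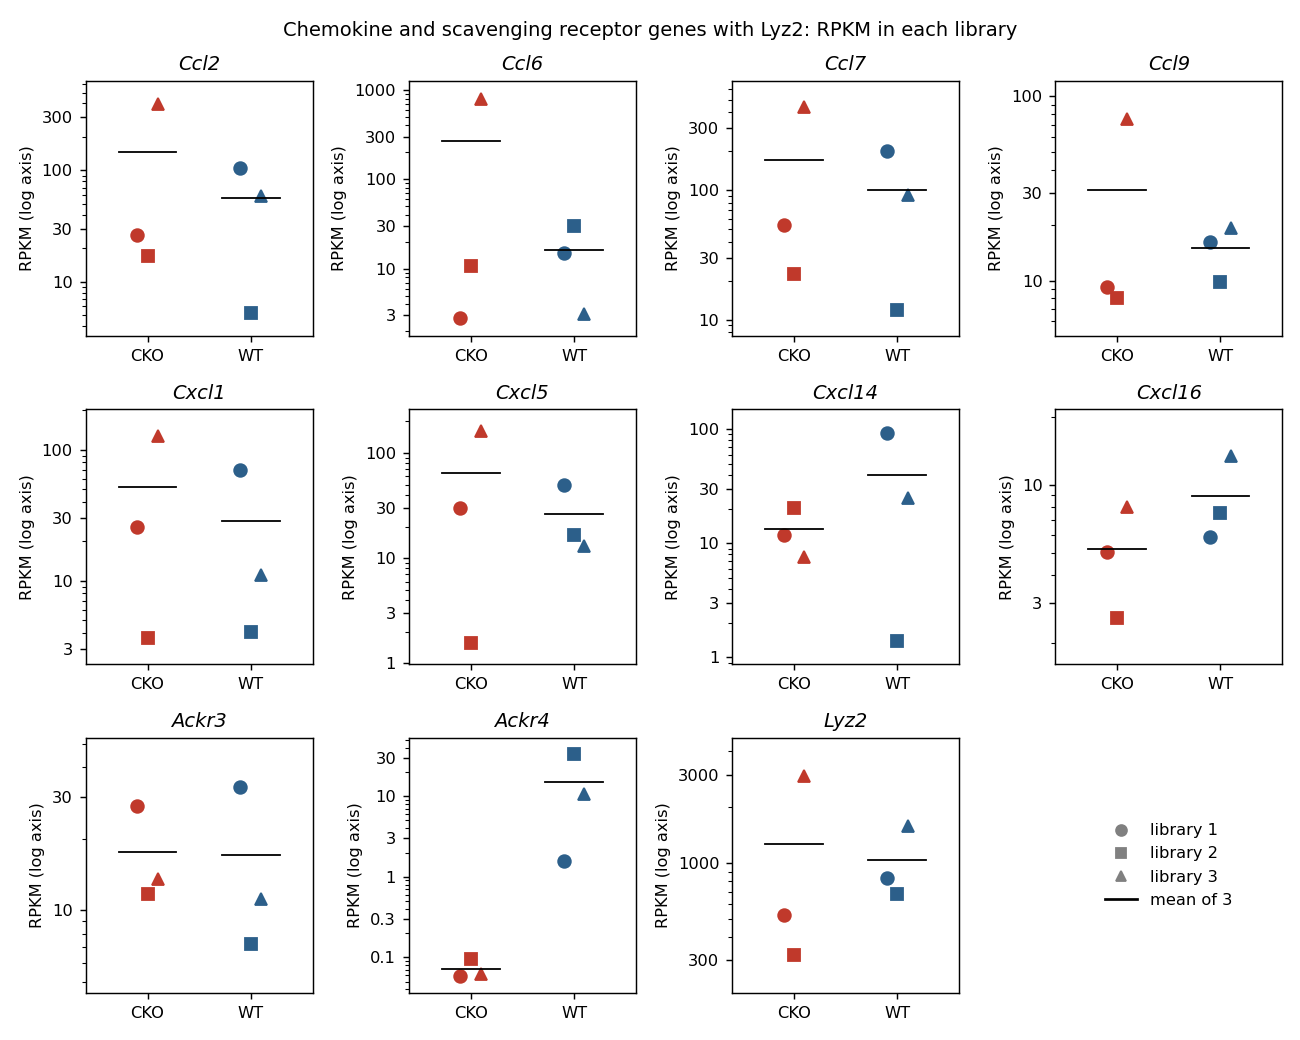
RPKM (log axis) of the 10 genes and Lyz2 in CKO (red) and WT (blue) libraries; circles, squares and triangles are libraries 1, 2 and 3 and bars are means of 3. Ackr4 is the gene whose groups do not overlap, with CKO libraries at 0.0580 to 0.0946 RPKM and WT libraries at 1.56 to 33.0 RPKM.

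Ccl2 and Ccl7, the monocyte attractants, gave nearly the same profile. Ccl2 was at 26.4, 17.0 and 397 RPKM in CKO libraries 1 to 3, against 105, 5.22 and 59.6 RPKM in WT libraries 1 to 3. CKO library 3 was far above the rest, WT library 2 was lowest, and the remaining CKO libraries lay inside the WT range. The difference was 0.77 (SE 1.43, 95% interval −2.62 to 4.15, limma adjusted p = 0.872), and it was −0.62 without CKO library 3. Ccl7 was at 53.7, 22.6 and 436 RPKM in CKO libraries, against 199, 11.9 and 91.2 RPKM in WT libraries. The order of the 6 libraries was the same as for Ccl2. Its difference was 0.41 (SE 1.31, interval −2.69 to 3.52, adjusted p = 0.929), and −0.79 without CKO library 3. These neighbouring genes on chromosome 11, with no protein-coding gene between them in the annotation, share a longest identical transcript run of 23 bases.

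Ccl6, a ligand of CCR1 made by myeloid cells of rodents, had the largest SD within genotypes of the 10 genes. It was at 2.83, 10.8 and 786 RPKM in CKO libraries 1 to 3, against 15.1, 30.0 and 3.09 RPKM in WT libraries 1 to 3. Most of the transcript was in CKO library 3, where 20026 reads lay on the gene, against 77 and 300 reads in CKO libraries 1 and 2 and 376, 891 and 77 reads in WT libraries 1 to 3. The remaining CKO libraries overlapped the WT libraries. The difference was 1.37 (SE 1.89, interval −3.10 to 5.85, adjusted p = 0.825), and −0.92 without CKO library 3. That SD was 3.05 on the log2 scale, larger than in 99.98% of all genes tested, for which the median SD was 0.35. A wide spread was not particular to Ccl6. The SDs of Ccl2, Ccl7, Cxcl1, Cxcl5 and Cxcl14 were each larger than in at least 99.57% of all genes tested.

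Ccl9, the neighbour of Ccl6 and likewise a CCR1 ligand of mice, was steadier than Ccl6. Its SD within genotypes was 1.27, still larger than in 97.49% of all genes tested. Ccl9 was at 9.23, 8.01 and 75.5 RPKM in CKO libraries, against 16.1, 9.77 and 19.2 RPKM in WT libraries. CKO library 3 was again highest, while CKO libraries 1 and 2 were below all 3 WT libraries. The difference was 0.31 (SE 0.80, interval −1.59 to 2.20, adjusted p = 0.911), and −0.69 without CKO library 3. Ccl6 and Ccl9 share an identical run of 25 bases, yet WT library 2 was the highest WT library for Ccl6 and the lowest for Ccl9.

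Cxcl1 and Cxcl5, the neutrophil attractants, also peaked in CKO library 3. Cxcl1 was at 25.7, 3.68 and 127 RPKM in CKO libraries 1 to 3, against 70.0, 4.05 and 11.0 RPKM in WT libraries 1 to 3. High and low libraries stood in both genotypes, with library 1 above library 2 in each. The difference was 0.63 (SE 1.35, interval −2.57 to 3.83, adjusted p = 0.889). Cxcl5 was at 30.1, 1.56 and 162 RPKM in CKO libraries, against 49.6, 16.8 and 13.2 RPKM in WT libraries. Its CKO range held the whole WT range, and its difference was 0.01 (SE 1.40, interval −3.29 to 3.31, adjusted p = 0.999). Without CKO library 3, the differences were −0.54 for Cxcl1 and −1.39 for Cxcl5.

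Promoter windows are shown for Cxcl1, Ccl9 and Ackr4, which hold a match to a searched motif, and for Ccl6, which peaked in CKO library 3 like Cxcl1 and Ccl9 and holds none. Windows from RefSeq (GRCm38.p6, 250 bases before to 50 after the start) were found for 6 of the 10 genes, Ccl6, Ccl9, Cxcl1, Cxcl14, Ackr3 and Ackr4. An NF-κB-type motif, GGNNTTTCC on either strand, was in 3 of these 6, against 5.82% of 32851 promoters. Its letters were widened after matches to a stricter form had been seen, so this count is no test of enrichment. An AP-1-type motif, TGANTCA on either strand, was in 1 of the 6, against 7.81% of promoters. The Cxcl1 window, chr5:90890995-90891294 on the plus strand, holds the NF-κB-type motif at −89 to −81 (reverse strand of the window) and at −70 to −62, counted from the start. The Ccl9 window, chr11:83578587-83578886 on the minus strand, holds the AP-1-type motif at −53 to −47 and the NF-κB-type motif at −35 to −27 (reverse strand of the window). The Ackr4 window, chr9:104126594-104126893 on the minus strand, holds the NF-κB-type motif at −230 to −222. The Ccl6 window is chr11:83593038-83593337 on the minus strand. Neither it nor the windows of Cxcl14 and Ackr3 hold either motif. The matches do not overlap and are in capitals. A match describes the letters and is not a measured binding site.
Cxcl1: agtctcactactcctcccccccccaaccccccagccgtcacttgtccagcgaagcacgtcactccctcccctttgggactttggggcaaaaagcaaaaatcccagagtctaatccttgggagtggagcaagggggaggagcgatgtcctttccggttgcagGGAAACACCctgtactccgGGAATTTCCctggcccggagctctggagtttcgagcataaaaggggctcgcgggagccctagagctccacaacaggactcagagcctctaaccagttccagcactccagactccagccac
Ccl9: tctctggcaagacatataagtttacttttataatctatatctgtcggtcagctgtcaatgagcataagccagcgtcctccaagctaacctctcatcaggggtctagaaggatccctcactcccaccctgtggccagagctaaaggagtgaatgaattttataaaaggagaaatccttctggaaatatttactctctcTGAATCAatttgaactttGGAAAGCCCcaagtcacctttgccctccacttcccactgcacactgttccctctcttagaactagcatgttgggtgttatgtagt
Ackr4: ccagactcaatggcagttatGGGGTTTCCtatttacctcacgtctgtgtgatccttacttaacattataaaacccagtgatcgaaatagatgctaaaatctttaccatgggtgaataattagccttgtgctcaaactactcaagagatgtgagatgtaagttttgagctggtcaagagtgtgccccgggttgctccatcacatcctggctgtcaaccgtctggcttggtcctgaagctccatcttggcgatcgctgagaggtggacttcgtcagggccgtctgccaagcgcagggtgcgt
Ccl6: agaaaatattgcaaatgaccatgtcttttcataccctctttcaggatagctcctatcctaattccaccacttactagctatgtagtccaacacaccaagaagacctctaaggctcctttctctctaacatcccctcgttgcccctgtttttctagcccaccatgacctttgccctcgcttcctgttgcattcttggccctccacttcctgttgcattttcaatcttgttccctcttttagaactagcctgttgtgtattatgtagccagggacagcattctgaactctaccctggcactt

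Cxcl14 and Cxcl16 followed other orders. CXCL14 is made by stromal and epithelial cells and lacks the ELR motif. Its gene was at 11.9, 20.4 and 7.61 RPKM in CKO libraries 1 to 3, against 93.1, 1.39 and 24.9 RPKM in WT libraries 1 to 3. Here the extremes were both WT libraries, WT library 1 highest and WT library 2 lowest, and the CKO libraries lay between them. The difference was −0.43 (SE 1.22, interval −3.32 to 2.46, adjusted p = 0.920). It was 0.76 without WT library 1 and −1.89 without WT library 2. That value had an unadjusted p of 0.0217 and an adjusted p of 0.757. Cxcl16, which encodes a membrane-bound ligand of CXCR6 on macrophages and dendritic cells, was at 5.02, 2.56 and 7.92 RPKM in CKO libraries, against 5.87, 7.48 and 13.4 RPKM in WT libraries. CKO libraries 1 and 2 were below all WT libraries and CKO library 3 was not. The difference was −0.71 (SE 0.41, interval −1.67 to 0.25, adjusted p = 0.607), and it stayed below 0 in 16 of 16 alternative analyses (with a library left out, −1.03 to −0.36).

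**Figure D2:**
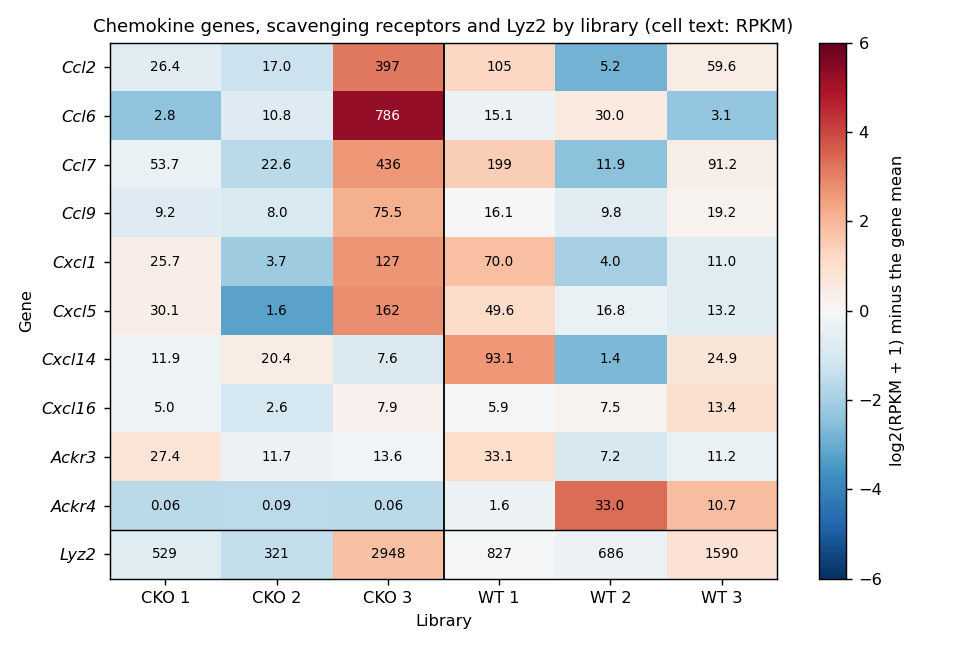
Levels of the 10 genes and Lyz2 in each library (CKO left of the line, WT right); colour is log2(RPKM + 1) minus the gene's mean over 6 libraries and cell text is RPKM. CKO library 3 is darkest red for Ccl6 at 786 RPKM, and Ackr4 is pale blue in all CKO libraries.

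The receptors differed from each other. Both carry an altered form of the sequence through which chemokine receptors couple to G proteins, whose place at the end of the third membrane segment is shown from GENCODE M21 beside the signalling receptor Cxcr4, with capitals for codons that encode another amino acid than in Cxcr4.
Cxcr4: gaccggtacctcgctattgtc
Ackr3: gaccgctatctcTCCatcACC
Ackr4: gacagatatTGGgcaattACC

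Ackr3, the scavenger of CXCL12 and CXCL11, was at 27.4, 11.7 and 13.6 RPKM in CKO libraries 1 to 3, against 33.1, 7.21 and 11.2 RPKM in WT libraries 1 to 3. Library 1 was highest in both genotypes, and the CKO libraries lay inside the WT range. The difference was 0.21 (SE 0.56, interval −1.11 to 1.53, adjusted p = 0.914). Without WT library 2 it was −0.23, and without WT library 1 it was 0.80.

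Ackr4, the scavenger of CCL19, CCL21 and CCL25, was at 0.0580, 0.0946 and 0.0619 RPKM in CKO libraries 1 to 3, against 1.56, 33.0 and 10.7 RPKM in WT libraries 1 to 3. These values rest on 3, 5 and 3 reads in CKO libraries, against 74, 1864 and 509 reads in WT libraries. Every CKO library was below every WT library, a pattern found in 9.18% of all genes tested. Over the pooled reads the CKO rate was 0.00444 of the WT rate (exact 95% interval 0.00222 to 0.00797, counting error only). Of the 2447 pooled WT reads, 1864 were from WT library 2, so that library weighs most in this rate. The interval does not cover the spread between libraries. The WT libraries differed among themselves, with WT library 2, of the later passage, highest and WT library 1 lowest. The difference was −3.23 (SE 0.84, interval −5.22 to −1.25), with a limma p of 0.00631 and an adjusted p of 0.303. The exact two-sided permutation p was 0.1, the smallest that 3 against 3 libraries can give. Ackr4 passed the filter only through the WT libraries, where it was high, so these p-values are not separate support for the difference. With no filter its limma adjusted p was 0.376. With a pseudocount of 0.1 the difference was −5.62 (adjusted p = 0.297), and limma-voom on the recovered reads gave −6.72 (SE 3.39, adjusted p = 0.580). The gene left the test where a WT library was left out. With no filter, leaving out WT library 1, 2 or 3 gave differences of −4.22, −2.36 and −3.12 (adjusted p = 0.0603, 0.640 and 0.775, in that order). Of the 11 tested stromal markers, 9 had differences below 0, with a median of −0.72, and 4 (Pdgfra, Pdgfrb, Ly6a and Cxcl12) had every CKO library below every WT library. None of the stromal markers was called, and their part in the Ackr4 result was not tested.

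**Figure D3:**
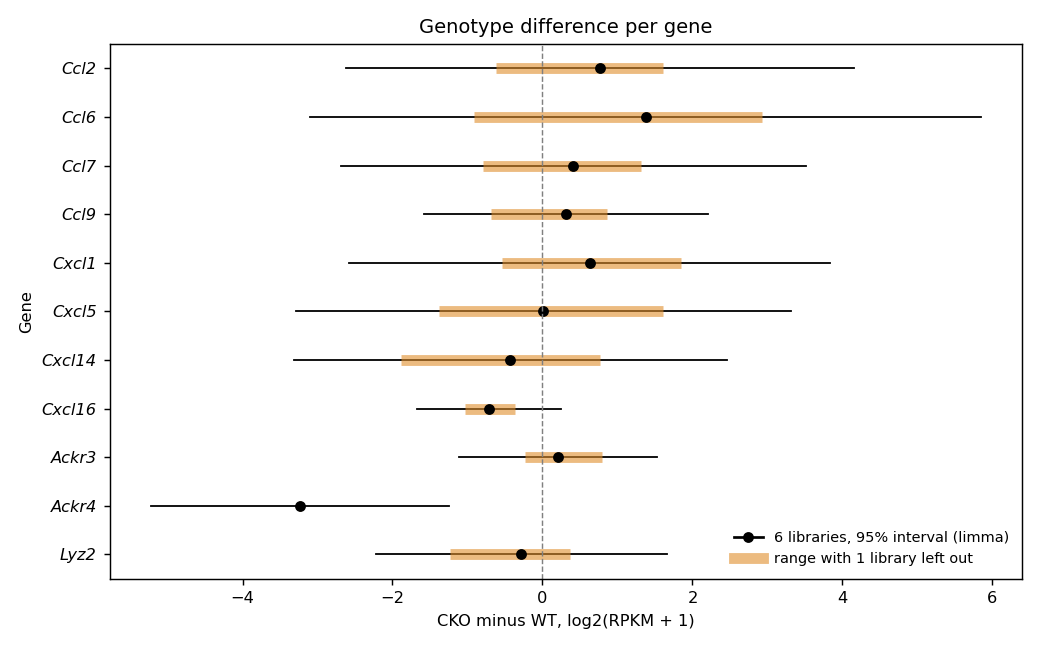
Difference between CKO and WT on log2(RPKM + 1) for each gene (points, CKO minus WT) with 95% limma intervals (black) and the range with 1 library left out (orange; for Ackr4 this covers the 3 CKO libraries, −3.25 to −3.22, and is hidden behind the point). The Ackr4 interval, −5.22 to −1.25, is the one that leaves out 0, for a gene that passed the filter only through the WT libraries.

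Lyz2 was at 529, 321 and 2948 RPKM in CKO libraries 1 to 3, against 827, 686 and 1590 RPKM in WT libraries 1 to 3. CKO library 3 was highest, CKO libraries 1 and 2 were lowest, and the groups overlapped (difference −0.28, SE 0.83, limma adjusted p = 0.922). Ccl9 put the 6 libraries in the same order as Lyz2, and it was the only one of the 10 genes to do so. Per 100 RPKM of Lyz2, Ccl9 was at 1.75, 2.50 and 2.56 RPKM in CKO libraries, against 1.95, 1.42 and 1.21 RPKM in WT libraries. Over the 6 libraries this ratio spanned 2.13-fold, where Ccl9 alone spanned 9.43-fold and Lyz2 9.19-fold.

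For the other 9 genes the ratio to Lyz2 spanned more than for Ccl9. Per 100 RPKM of Lyz2, Ccl2 was at 4.99, 5.30 and 13.5 RPKM in CKO libraries, against 12.7, 0.760 and 3.75 RPKM in WT libraries. The ratio spanned 17.7-fold, and Ccl2 alone 76.2-fold. For Ccl6 the ratio was 0.536, 3.37 and 26.7 in CKO libraries, against 1.82, 4.37 and 0.194 in WT libraries. CKO library 3 stayed apart after this scaling, and the span was 137-fold, against 278-fold for Ccl6 alone. The ratio spanned 13.8-fold for Ccl7 (36.5-fold for the gene alone), 14.3-fold for Cxcl1 (34.4-fold), 12.3-fold for Cxcl5 (104-fold), 55.7-fold for Cxcl14 (67.2-fold) and 4.05-fold for Cxcl16 (5.24-fold). The Ackr3 ratio spanned 11.3-fold, more than Ackr3 alone (4.59-fold), and the Ackr4 ratio 2290-fold against 569-fold. Without Lyz2, the other 20 macrophage markers summed to 293, 144 and 846 RPKM in CKO libraries 1 to 3, against 358, 205 and 919 RPKM in WT libraries 1 to 3. Library 3 was highest in both genotypes. With the mean macrophage marker level as a covariate, differences were 1.19 (SE 0.91) for Ccl2, 0.54 (SE 0.52) for Ccl9, −0.59 (SE 0.27) for Cxcl16 and −3.30 (SE 0.91) for Ackr4. None of the 10 genes was called in that fit, and the part of macrophage content in the levels was not tested further.

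**Figure D4:**
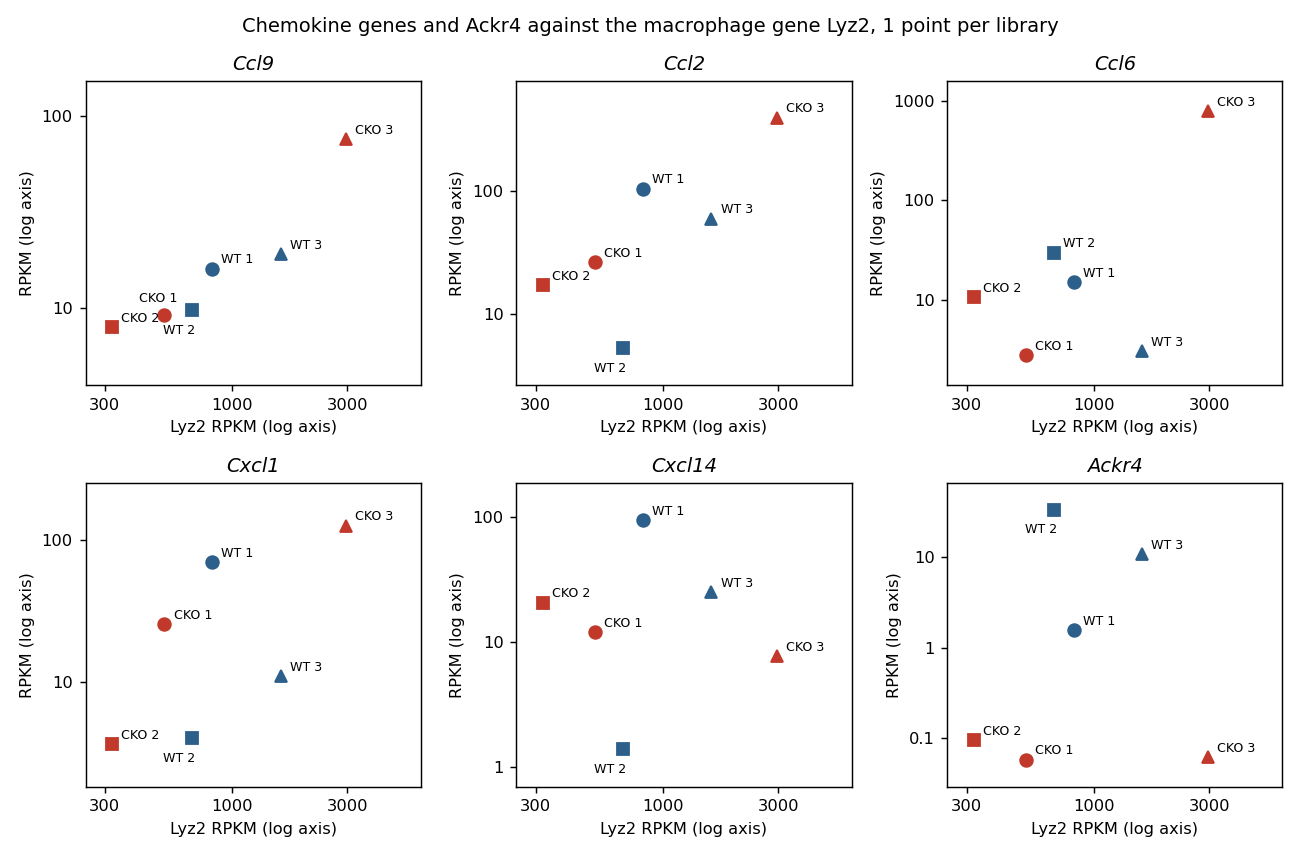
RPKM of Ccl9, Ccl2, Ccl6, Cxcl1, Cxcl14 and Ackr4 against RPKM of Lyz2 (both log axes), 1 point per library, CKO red and WT blue. Ccl9 rises with Lyz2 through all 6 libraries, while all 3 CKO libraries lie below all 3 WT libraries for Ackr4.

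The genes with the most similar profiles were found by the root mean square difference of centred log2(RPKM + 1) over the 6 libraries, a description of these libraries only. Ccl2 and Ccl7 were each other's nearest gene, at 0.34. Il6, which encodes the inflammatory cytokine interleukin-6, came next for both (0.57 for Ccl2 and 0.47 for Ccl7) and was nearest to Cxcl1 (0.43), ahead of Cxcl3 (0.50). Il6 was at 5.04, 1.45 and 46.8 RPKM in CKO libraries, against 17.1, 0.169 and 2.98 RPKM in WT libraries. Ccl6 had no close companion, the nearest being Saa3, an acute-phase serum amyloid gene, at 1.32. Ccl9 was nearest to Casp4 (0.19), which encodes an inflammatory caspase, and to the interferon-induced genes Ifi203 (0.22) and Iigp1 (0.28). Cxcl5 was nearest to Stc1 (0.84) and Cxcl1 (0.84), Cxcl14 to Nr4a1 (0.52), Cxcl16 to Cd300lb (0.12) and Ackr3 to Grb10 (0.16). Ackr4 was nearest to Vit (0.36), Chrdl1 (0.37), which encodes a BMP antagonist, and Fxyd1 (0.39), which encodes a regulator of the sodium pump. Vit was at 0.279, 0.957 and 0.645 RPKM in CKO libraries, against 2.61, 47.5 and 30.2 RPKM in WT libraries. Of the 30 nearest genes, 7 stayed nearest without CKO library 3 and 6 without WT library 2.

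Among other CC ligands, 11 of 17 genes were listed and 6 tested, and none was called. Differences of 5 lay above 0 and of 1 below, with a median of 0.40. Ccl25, a thymic and intestinal ligand that ACKR4 scavenges, was at 1.69, 2.24 and 1.96 RPKM in CKO libraries, against 1.06, 0.378 and 0.945 RPKM in WT libraries. All CKO libraries were above all WT libraries, as in 7.51% of all genes, with a difference of 0.74 (SE 0.24, adjusted p = 0.377). Ccl12, a monocyte attractant of mice, was at 4.43, 1.74 and 12.3 RPKM in CKO libraries, against 5.70, 0 and 4.62 RPKM in WT libraries (difference 0.80, adjusted p = 0.763). Ccl5, a T-cell and monocyte attractant, was at 3.97, 5.25 and 2.33 RPKM in CKO libraries, against 3.90, 0.727 and 4.33 RPKM in WT libraries (difference 0.40, adjusted p = 0.791). Both overlapped between genotypes.

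Of 13 other CXC, CX3C and C ligands, 9 were listed and 7 tested, and none was called, with 5 differences above 0, 2 below and a median of 1.06. Cxcl12, the marrow ligand that retains haematopoietic stem cells through CXCR4 and that ACKR3 scavenges, was at 33.9, 28.1 and 44.8 RPKM in CKO libraries, against 48.2, 87.8 and 138 RPKM in WT libraries. All CKO libraries were below all WT libraries, as in 9.18% of all genes (difference −1.24, SE 0.40, adjusted p = 0.376). The gene is on the stromal marker list too. Pf4, the platelet factor 4 gene, was at 18.1, 12.8 and 210 RPKM in CKO libraries, against 44.2, 0.0822 and 12.7 RPKM in WT libraries. It was highest in CKO library 3 and lowest in WT library 2 (difference 2.12, adjusted p = 0.668, and 0.62 without WT library 2). Cxcl10, an interferon-induced ligand of CXCR3, was at 1.25, 2.63 and 3.48 RPKM in CKO libraries, against 0.523, 0 and 1.62 RPKM in WT libraries, and the groups overlapped (difference 1.06, adjusted p = 0.468).

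Signalling receptors were sparse. Of 21 chemokine receptor genes 8 were listed and 1 tested, and it was not called. Ccr1, a receptor for CCL6 and CCL9, was at 1.25, 0.730 and 17.8 RPKM in CKO libraries, against 2.97, 0.666 and 0.875 RPKM in WT libraries (difference 0.85, adjusted p = 0.761). It too was highest in CKO library 3.

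All 21 genes of the NF-κB list, the pathway through which inflammatory signals induce many chemokine genes, were tested, and none was called, with 8 differences above 0, 13 below and a median of −0.15. Tnfaip3, an NF-κB-induced inhibitor of the pathway, was at 1.56, 2.15 and 8.10 RPKM in CKO libraries, against 1.51, 1.27 and 1.53 RPKM in WT libraries. All CKO libraries were above all WT libraries, as in 7.51% of all genes, but the difference (0.78, SE 0.46, adjusted p = 0.607) was 0.22 without CKO library 3. Nfkbie, which encodes an inhibitor that holds NF-κB in the cytoplasm, was lower in all CKO libraries, as were 9.18% of all genes. It was at 1.49, 1.74 and 1.94 RPKM in CKO libraries, against 2.03, 2.64 and 2.84 RPKM in WT libraries (difference −0.36, adjusted p = 0.614). Chuk, the IKKα kinase gene, was at 13.1, 10.4 and 18.2 RPKM in CKO libraries, against 12.0, 4.30 and 9.36 RPKM in WT libraries (difference 0.70, adjusted p = 0.589).

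Of 8 genes for chemokine processing and receptor uptake, 7 were tested and none was called, with 3 differences above 0 and 4 below, and a median of −0.10. Grk5, a kinase that marks active receptors for uptake, was at 3.82, 2.87 and 3.24 RPKM in CKO libraries, against 6.69, 7.65 and 5.97 RPKM in WT libraries. Arrb1, a β-arrestin that binds such receptors, was at 2.19, 1.02 and 2.17 RPKM in CKO libraries, against 3.24, 7.81 and 5.75 RPKM in WT libraries. For both, every CKO library was below every WT library, as in 9.18% of all genes. The differences were −0.85 (SE 0.21, adjusted p = 0.284) for Grk5 and −1.21 (SE 0.34, adjusted p = 0.320) for Arrb1 in limma. Grk6, a related kinase, lay the other way, at 20.6, 22.0 and 22.0 RPKM in CKO libraries, against 19.5, 10.3 and 15.7 RPKM in WT libraries (difference 0.52, adjusted p = 0.568). Its CKO libraries were all above its WT libraries, as in 7.51% of all genes. Arrb2, the β-arrestin gene listed beside Arrb1, overlapped between genotypes (difference −0.27, limma adjusted p = 0.855). It was at 8.95, 6.06 and 9.66 RPKM in CKO libraries, against 11.5, 4.61 and 17.7 RPKM in WT libraries.

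**Figure D5:**
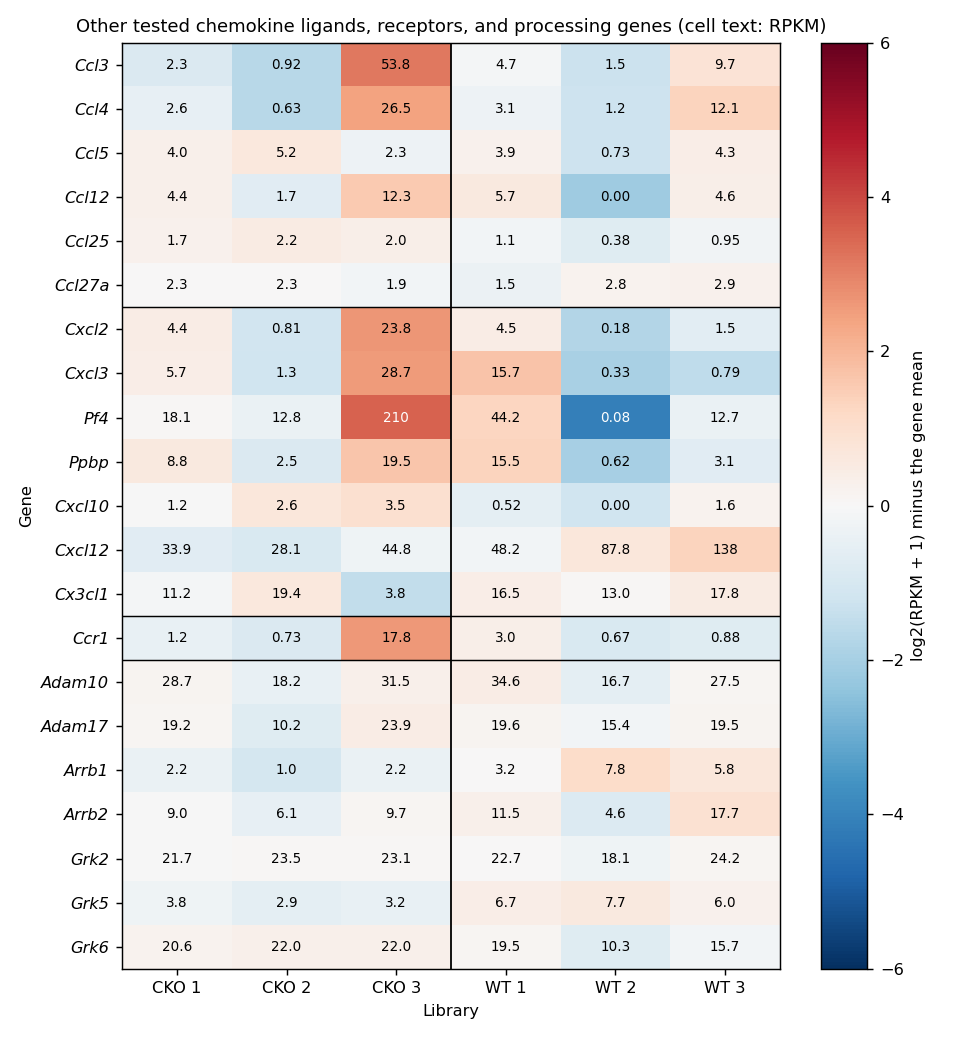
Other tested chemokine ligands (upper blocks), the signalling receptor Ccr1 and processing genes (lowest block) in each library, CKO left of the line and WT right; colour is log2(RPKM + 1) minus the gene's mean and cell text is RPKM. Pf4 and Ccr1 are highest in CKO library 3 at 210 and 17.8 RPKM, and Cxcl12, Grk5 and Arrb1 are lower in every CKO library than in every WT library.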

How the data were processed

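Libraries were made with a stranded TruSeq mRNA kit, per the labels' protocols. The authors deposited 1 value per gene and library, called expression in the file headers, and the values were found to be RPKM: a single total per library and a single length per gene turned the values of 15062 of 15063 genes (99.99%) into whole reads (tolerance 0.01 read, or a relative 1e-07 for large counts). The recovered totals were 18938287, 19345817 and 17751778 in CKO libraries and 17351907, 20689481 and 17352121 in WT libraries, so 3 reads on a gene of 1 kb are 0.145 to 0.173 RPKM, an error from counting alone. Per the submitters' processing notes, mm9 was the genome build. The sources used here do not give the aligner, counter, annotation, use of strand or filters. Overlapping or near-identical genes may thus share reads (Lyz2 and Lyz1 share a run of 118 bases). Groups follow the sample titles. The description and the file header of WT library 3 differ in the animal number.

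All 6 libraries entered a fit of log2(RPKM + 1) with limma 3.58.1 in R 4.3.3 over the 11085 genes that reached 1 RPKM in 3 or more libraries, with trend and robust moderation, two-sided p-values, Benjamini-Hochberg adjustment over all of them and a threshold of 0.05. Differences are CKO minus WT on that log2 scale, which understates those of low genes. The fit was tested on simulated data. The labels do not state separate litters or cultures, and p-values therefore cover only how these libraries vary, which may be technical. The 10 genes and the gene lists were chosen with earlier results of these data known. Besides the 10 genes, Lyz2 and Mapk7, the genes named came from the 3 with the lowest p in each list and the 3 nearest genes of each of the 10 by profile. The receptor list lacks 1 gene that is not reported here. Ddx3y, Arrb2, the stromal markers and the genes of the closing observations were chosen after their values were seen. Alternatives changed the scaling, the filter (none, or an RPKM of 5), the pseudocount (0.1), the moderation, the model (limma-voom on recovered reads, replicate number as a block, macrophage marker covariate, WT libraries 1 and 2 merged) and the libraries included. Promoters were matched by symbol to RefSeq, of another build than the values, and the letters of the NF-κB-type motif were widened after matches to a stricter form had been seen.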

Additional observations from a re-analysis of the deposited data

How the results depend on the processing

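None of the 10 genes was called in any of the 16 alternatives, and adjusted p-values for Ackr4 were 0.293 to 0.580 in the 11 that tested it, all with the difference below 0. Over all genes, 1 was called higher and 0 lower in CKO libraries by limma (372 and 708 at an unadjusted p under 0.05). The number called higher was 2 with median centring, 2 with quantile normalization, 4 with WT libraries 1 and 2 merged, and 0 with no filter, a pseudocount of 0.1, limma-voom, the replicate block or the macrophage covariate. The number called lower was 3 with the filter at an RPKM of 5 and 15 with the WT libraries merged. With 1 library left out, 0 to 8 genes were called higher and 0 to 16 lower. The unadjusted split was 487 higher and 605 lower with median centring and 510 and 641 with quantile normalization, and these scalings moved the median of all genes by less than 0.1.

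With 1 library left out, differences ran from −0.62 to 1.61 for Ccl2, −0.92 to 2.93 for Ccl6, −0.79 to 1.32 for Ccl7, −0.69 to 0.85 for Ccl9, −0.54 to 1.84 for Cxcl1, −1.39 to 1.61 for Cxcl5, −1.89 to 0.76 for Cxcl14, −0.23 to 0.80 for Ackr3 and −1.23 to 0.37 for Lyz2. They ran from −0.075 to 1.34 for Ccl12 and −0.12 to 0.69 for Ccl5. Without CKO library 3, the 6 genes that peaked there all had differences below 0, and 1 of the 10 stayed above 0. Without WT library 2, differences of Ccl2, Ccl7, Cxcl1, Cxcl5 and Ackr3 were below 0. Cxcl5 was at −0.15 with a pseudocount of 0.1 and −0.20 with limma-voom. The cause was not tested.

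Over all genes tested, correlations of deviations were 0.198, 0.014 and −0.019 for libraries of the same number, against −0.23 to 0.206 for libraries of different numbers. With so few libraries this does not settle whether the numbers pair samples. With the replicate block, Ackr4 had an adjusted p of 0.385 and Cxcl16 a difference of −0.71 with an unadjusted p of 0.0458 (adjusted p = 0.483 in limma). The no-filter values of Ackr4 without each WT library and the counts of nearest genes kept were chosen after seeing the data. Depth limits Ackr4 in CKO libraries, where it rests on 3 to 5 reads.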

Other observations

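Some chemokine genes too low to be tested stood out in 1 library. Ccl8, a monocyte attractant, was at 0, 0.101 and 5.84 RPKM in CKO libraries 1 to 3, against 0.113, 0.0946 and 0 RPKM in WT libraries 1 to 3. Ccl11, the eosinophil attractant eotaxin, was at 0.344, 0.0482 and 6.67 RPKM in CKO libraries, against 0.107, 0 and 0.0537 RPKM in WT libraries. Both exceeded 1 RPKM in CKO library 3 alone. Ccl3, a macrophage inflammatory ligand, was at 2.34, 0.916 and 53.8 RPKM in CKO libraries, against 4.67, 1.47 and 9.70 RPKM in WT libraries, and overlapped between genotypes (difference 0.41, SE 1.24, limma adjusted p = 0.926). Ccr2, the receptor of CCL2 on monocytes, was at most 0.0447 RPKM in CKO libraries and at most 0.0610 RPKM in WT libraries, while Ccl2 reached 397 RPKM in CKO libraries and 105 RPKM in WT libraries. Nfkbiz, an inducible regulator of NF-κB target genes, was at 15.2, 8.89 and 44.7 RPKM in CKO libraries, against 29.5, 1.82 and 8.90 RPKM in WT libraries, with CKO library 3 highest and WT library 2 lowest as for Ccl2 (difference 1.03, SE 0.91, adjusted p = 0.721).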
